A study of Mus musculus with 36 samples.

Results

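Of the 24066 gene symbols listed on 1 row of the liver tables, 7 were followed here because they sense foreign chemicals or serve the enzymes that clear them. They were selected by symbol: the receptors Nr1i2, Nr1i3, Ahr and Rxra, the electron donor Por, the heme synthesis enzyme Alas1 and the esterase Ces2a. All 7 passed the filter on low values (a mean of at least 0.1 FPKM), as did 13215 genes in total.

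Livers came from wild-type male C57BL/6JRj mice aged 16 weeks and housed 5 per cage. For 4 weeks, one group underwent chronic intermittent hypoxia (IH) from ZT0 to ZT8 each day, where ZT0 is lights on, at 60 cycles per hour with inspired oxygen falling to a nadir of 5%. The control group received matched cycles of air. In each condition, 3 mice were sampled at each of 6 times 4 h apart, which gave 36 polyadenylated RNA libraries from separate animals and 18 libraries per condition.

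In the liver, PXR (the product of Nr1i2) and CAR (Nr1i3) are nuclear receptors that detect drugs, bile acids and steroids and bind DNA together with RXRα (Rxra), while AHR is a ligand-activated factor that detects planar aromatic compounds and pairs with ARNT. These sensors raise the transcription of cytochrome P450 enzymes, conjugating enzymes and transporters. P450 enzymes need heme, whose first and rate-limiting step in liver is catalysed by ALAS1, and electrons, which P450 oxidoreductase (POR) delivers from NADPH. CES2A is a carboxylesterase that cleaves ester drugs and acylglycerols. Several of these genes are known outputs of the liver clock, through the PAR bZIP factors DBP, TEF and HLF.

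Expression was measured as FPKM, the number of sequenced fragments per kilobase of transcript, scaled to the fragments of the library. The read counts behind the values are unknown, so no counting error could be given. The sum over all symbols was 758113 FPKM in control ZT12 replicate 2, while the other 35 libraries had sums of 540095 to 579428. In 3 libraries, control ZT12 replicate 2, control ZT16 replicate 3 and IH ZT0 replicate 2, the acute phase gene Saa1 exceeded 10000 FPKM. Some results without these libraries are given beside the genes they concern. The 4 hepatocyte markers Alb, Apoa1, Ttr and Serpina1c summed to 40384 to 66708 FPKM in the control libraries, against 41848 to 58042 in the IH libraries. At ZT4 the groups did not overlap, at 46826 to 48647 in control and 54687 to 58042 in IH. Of all single genes, 26.7% had the 3 IH values above the 3 control values there. The 4 Kupffer cell markers summed to 18.4 to 121 FPKM in control, highest in control ZT12 replicate 2, and to 16.6 to 41.4 in IH. The 3 T and B cell markers summed to at most 1.30 FPKM in any library. Over the whole day, 1 of 4 pericentral hepatocyte markers was called lower in IH and 1 of 4 sinusoidal endothelial markers higher (limma, adjusted p under 0.05). No marker of the other marker lists was called. In whole liver, a change in the number of cells of one type and a change in RNA per cell cannot be told apart.

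Promoters of Nr1i3 and Por, the 2 genes of the group with the largest positive differences between IH and control at ZT4 and ZT8, are shown as the sequence context of these profiles. They are the 250 bases before a start site in RefSeq (build GRCm38.p6, plus strand), with matches to 4 searched sequences in capitals. These are the clock E-box CACGTG, the D-box (TTATG, then C or T, then AA) bound by PAR bZIP factors, the dioxin response core GCGTG of AHR and the nuclear receptor hexamer AGGTCA, each read on both strands.
Nr1i3, chr1:171213720-171213969: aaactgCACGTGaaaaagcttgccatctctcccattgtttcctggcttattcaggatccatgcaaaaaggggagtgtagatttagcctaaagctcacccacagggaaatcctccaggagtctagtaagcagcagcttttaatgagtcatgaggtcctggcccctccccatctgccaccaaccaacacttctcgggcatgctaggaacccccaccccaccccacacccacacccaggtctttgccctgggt
Por, chr5:135688895-135689144: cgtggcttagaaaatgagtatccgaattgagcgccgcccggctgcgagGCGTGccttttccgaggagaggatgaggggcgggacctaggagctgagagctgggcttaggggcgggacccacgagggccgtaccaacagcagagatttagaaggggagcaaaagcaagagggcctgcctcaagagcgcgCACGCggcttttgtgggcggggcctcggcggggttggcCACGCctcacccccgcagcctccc

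The Nr1i3 window held 1 E-box, at positions -244 to -239 from the start. By its letters, any E-box CACGTG also contains the HIF core ACGTG on both strands, as this one does. Of the 32851 mouse promoters in the table, 7.15% held an E-box and 19.6% the HIF core, searched from 250 bases before to 50 bases after the start. The Por window held 3 copies of GCGTG, a sequence found in 32.4% of promoters. The overlapping Alas1 promoters, not shown, held 1 match each to it, at the same bases of the chromosome. The Ces2a promoter and 1 of the Rxra promoters held AGGTCA (16.3% of promoters), and the D-box letters, present in 1.66% of promoters, were in none of the 8 promoters of the 6 genes with an entry. Ahr had no entry. These matches describe letters only.

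Transcript levels of the 7 genes spanned a wide range. Over the 36 libraries the mean was highest for Alas1 (175 ± 141, SD), followed by Ces2a (163 ± 40.6), Por (134 ± 76.2), Rxra (68.6 ± 8.93), Nr1i3 (62.1 ± 21.5), Nr1i2 (24.3 ± 4.41) and Ahr (4.90 ± 1.36). Among the first 5, neighbours in this order overlapped. Alas1 exceeded Ces2a in 17 of 36 libraries, Ces2a exceeded Por in 25, Por exceeded Rxra in 29 and Rxra exceeded Nr1i3 in 22. Nr1i3 was above Nr1i2, and Nr1i2 above Ahr, in 36 of 36 libraries. Thus, per transcript length, CAR messenger RNA was more abundant than PXR messenger RNA in each mouse, and Ahr was the lowest of the group.

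**Figure D1:**
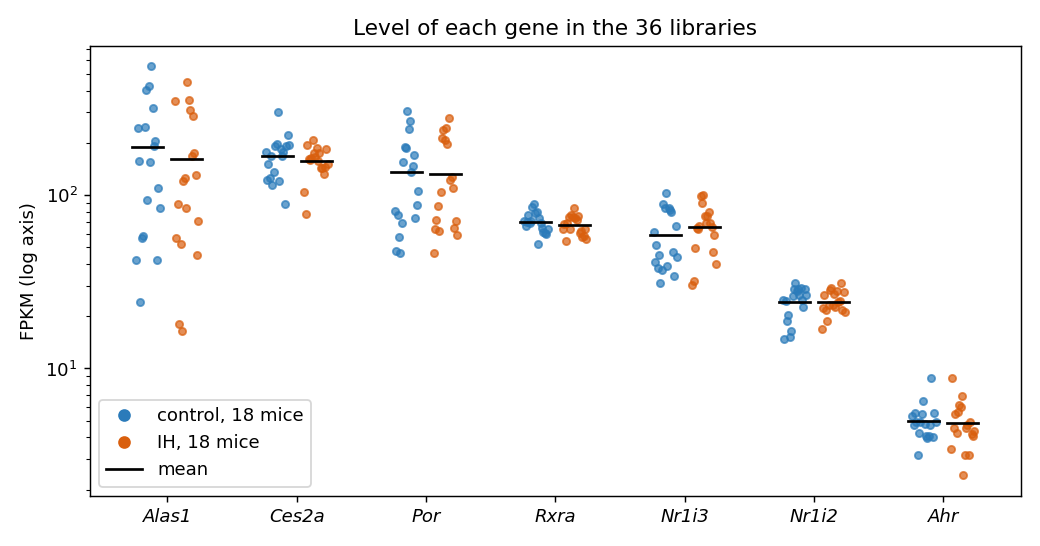
FPKM on a log axis for each of the 7 genes, with 1 point per mouse (blue, 18 control; orange, 18 IH) and a black bar at the mean of each condition. Alas1 and Por spread widely over the day, Rxra and Nr1i2 sat in narrow bands, and Ahr lay below Nr1i2 in every library.

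Daily rhythms were tested with limma, as a cosine of 24 h fitted separately to the 18 control and the 18 IH libraries, on the log2(FPKM + 1) scale. A gene was called rhythmic at a nominal P of 0.01 or less. In control, 4 of the 7 genes were rhythmic (Por, Alas1, Nr1i2 and Rxra), where 20.0% of all genes tested were called. In IH, 4 of the 7 were rhythmic (Por, Alas1, Nr1i3 and Rxra), where 39.9% of all genes were called. The 3 genes called in both conditions compare with 15.5% of all genes. Ahr and Ces2a were called in neither condition. The rhythms themselves were then compared between conditions in a fit over all 36 libraries, and 0 of the 7 genes differed at an adjusted p under 0.05 (limma with Benjamini-Hochberg adjustment, smallest adjusted p 0.92), as did 0% of all genes. Without adjustment, P was under 0.05 for 1 of the 7 genes, Por, and for 4.91% of all genes.

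**Figure D2:**
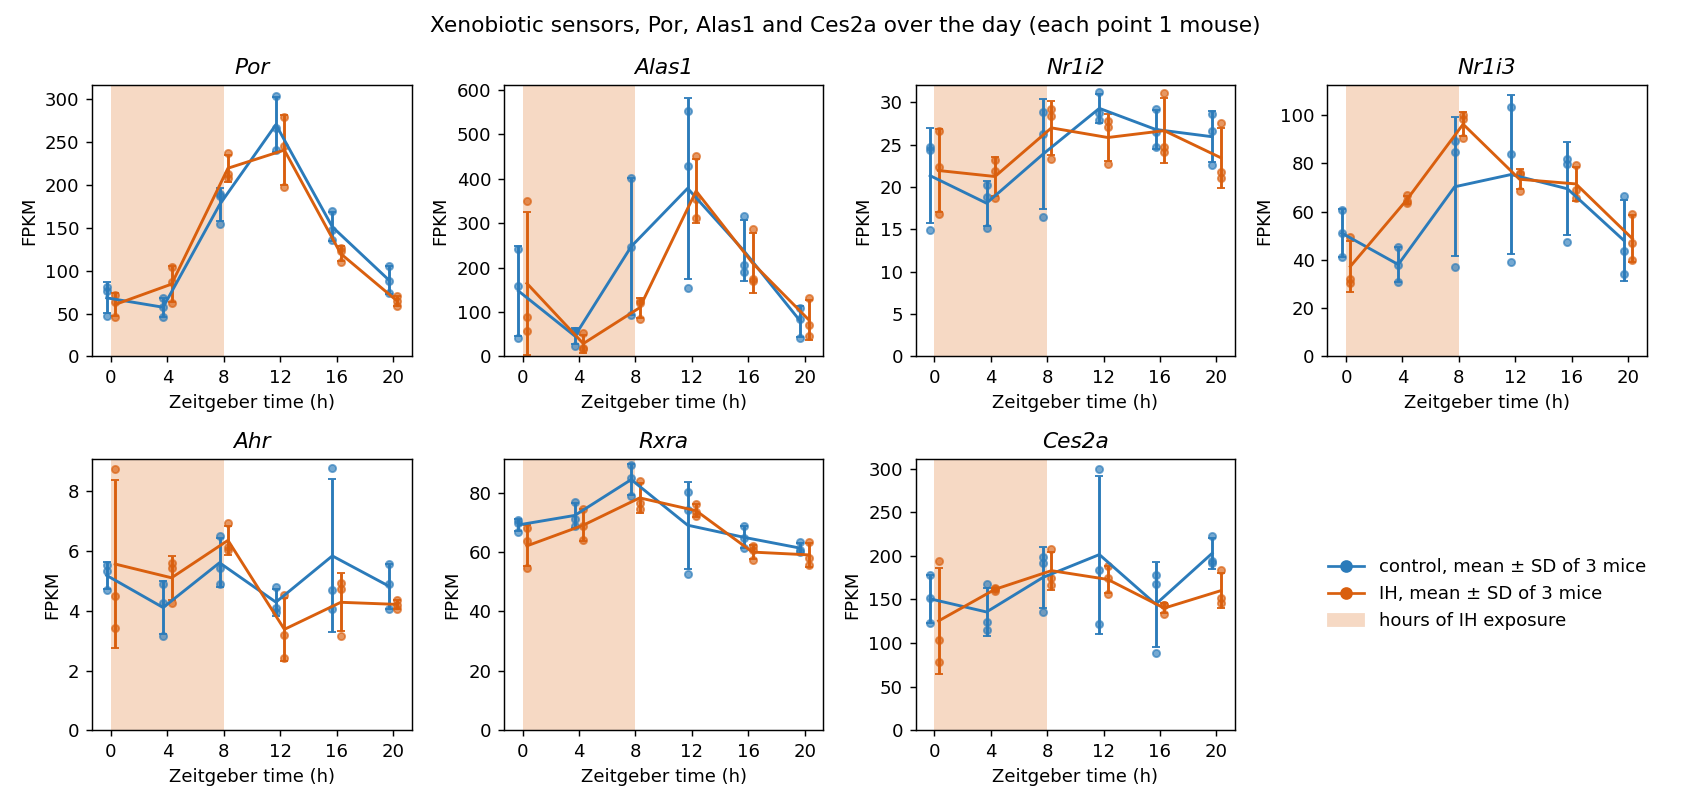
FPKM against Zeitgeber time for each gene, with 1 point per mouse and lines through the mean of 3 mice ± SD (blue, control; orange, IH); shading marks the hours of IH exposure. Por and Alas1 peaked at ZT12 in both conditions, and Nr1i3 in IH lay above control at ZT4 and ZT8 without overlap.

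Por (GRCm38 chromosome 5, 135670033 to 135735326, plus strand) encodes the flavoprotein on which microsomal P450 enzymes depend for electrons. In control, the 3 mice had 57.2, 46.4 and 68.8 FPKM at ZT4 and 155, 189 and 187 at ZT8. Levels reached 304, 241 and 267 at ZT12 and fell back to 136, 148 and 169 at ZT16, then to 74.2, 87.9 and 106 at ZT20 and 81.3, 47.6 and 76.3 at ZT0. The highest mean was 4.71 times the lowest, and every mouse at ZT12 stood above every mouse at the other times. The lowest ZT12 value, 241, was from control ZT12 replicate 2, the library with a sum of 758113 FPKM. Whether this order holds after scaling of the libraries was not tested.

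In IH, Por stood at 86.6, 62.2 and 105 FPKM at ZT4, at 213, 238 and 209 at ZT8 and at 245, 198 and 279 at ZT12. It then declined to 123, 127 and 110.1 at ZT16, to 64.6, 70.6 and 58.8 at ZT20 and to 46.5, 63.5 and 72.0 at ZT0. The IH profile was thus higher on the rising side of the day and lower on the falling side: the 3 IH mice were all above the 3 control mice at ZT8 (as for 11.0% of all genes) and all below them at ZT16 and ZT20 (as for 3.84% and 4.18% of all genes). The rhythm of Por was called in control (P = 4.85e-08, n = 18) and in IH (P = 4.17e-10, n = 18). Its fitted maximum was at 12.4 h in control, against 10.8 h in IH, a shift of -1.67 h, while its amplitude, from the fitted mean to the fitted maximum, was 1.07 and 1.10 on the log2 scale. The difference between the cosines had an unadjusted P of 0.00741 (n = 36) and an adjusted p of 0.92, so it did not pass.

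Alas1 (chromosome 9, 106233455 to 106248654, minus strand) encodes the housekeeping form of 5-aminolevulinate synthase, which heme itself represses. Its levels moved over a wider range than those of Por, and mice of the same time differed widely. In control, values were 24.2, 56.3 and 57.9 FPKM at ZT4, 247, 401 and 93.7 at ZT8 and 427, 154 and 553 at ZT12. They were 316, 191 and 205 at ZT16, 42.5, 110.0 and 84.8 at ZT20 and 42.0, 243 and 158 at ZT0. The ZT12 mean was 8.20 times the ZT4 mean.

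In IH, Alas1 was lowest at ZT4, with 18.0, 52.6 and 16.4 FPKM, followed by 120.2, 125 and 84.4 at ZT8 and 452, 354 and 311 at ZT12. Later values were 169, 287 and 175 at ZT16, 131, 45.0 and 70.7 at ZT20 and 349, 56.3 and 88.4 at ZT0. The ZT12 mean was 12.8 times the ZT4 mean. Alas1 was rhythmic in control (P = 0.00498, n = 18, fitted maximum at 12.8 h, amplitude 1.18) and in IH (P = 0.00293, n = 18, maximum at 14.2 h, amplitude 1.32). With JTK_Cycle, a rank-based rhythm test, neither call was made (P = 0.0210 for control and 0.0274 for IH, n = 18 each). The control call was also lost without control ZT0 replicate 1, ZT12 replicate 1 or ZT12 replicate 3 (P = 0.0143, 0.0145 and 0.0168, n = 17).

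Nr1i3 (chromosome 1, 171213970 to 171220701, plus strand) encodes CAR, which is active without a ligand in the nucleus and drives Cyp2b genes. In control, the 3 mice had 38.0, 45.4 and 31.0 FPKM at ZT4, 37.2, 89.2 and 84.6 at ZT8 and 103, 39.0 and 83.9 at ZT12. The other control values were 81.7, 79.6 and 47.3 at ZT16, 34.0, 66.5 and 43.8 at ZT20 and 60.9, 41.1 and 51.3 at ZT0. Mice at ZT8, ZT12 and ZT16 differed among themselves by more than the means of these times did.

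In IH, Nr1i3 values lay closer together, with 64.4, 63.6 and 66.7 FPKM at ZT4, 98.5, 90.5 and 99.9 at ZT8 and 75.6, 68.6 and 76.2 at ZT12. They were 79.6, 69.1 and 65.9 at ZT16, 47.2, 59.2 and 40.1 at ZT20 and 30.4, 31.9 and 49.6 at ZT0. All IH mice were above all control mice at ZT4 (as for 26.7% of all genes) and at ZT8 (as for 11.0%). The IH mean was highest at ZT8, where the control mean was highest at ZT12. The rhythm of Nr1i3 was called in IH (P = 1.38e-05, n = 18, maximum at 10.3 h, amplitude 0.57) and not in control (P = 0.0649, n = 18, maximum at 13.0 h, amplitude 0.38), and the difference between the cosines was not called (unadjusted P = 0.14, n = 36, adjusted p = 0.92). Without the 3 libraries of high Saa1, Nr1i3 was called rhythmic in control too (P = 0.00453, n = 16), and likewise after scaling by the median ratio over genes (P = 0.00919, n = 18).

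The gene body of Nr1i3 overlaps over 4691 bases with that of Tomm40l, which encodes an outer mitochondrial membrane channel and lies on the opposite strand. The libraries were stranded, but whether the counting used strand is not given in the sources used here, so reads of the 2 genes cannot be told apart with certainty. Tomm40l averaged 26.1 FPKM over all libraries and followed Nr1i3 with a Pearson r of 0.905. At ZT4, Tomm40l had a mean of 13.9 ± 2.79 FPKM in control and 26.8 ± 4.56 in IH, and at ZT8 it had 36.7 ± 14.8 and 45.7 ± 1.32 (SD, n = 3). The part of Tomm40l in the values of Nr1i3 was not tested.

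Nr1i2 (chromosome 16, 38248323 to 38294824, minus strand) encodes PXR, the main sensor for many drugs and steroids. In control, its mean was lowest at ZT4, with 18.8, 20.3 and 15.1 FPKM, and highest at ZT12, with 31.2, 27.9 and 28.7. The IH mice had 21.8, 18.7 and 23.1 at ZT4. At ZT12 they had 27.0, 22.7 and 27.8, all below the 3 control mice (as for 6.74% of all genes). The lowest of these control values, 27.9, was from control ZT12 replicate 2, the library with a sum of 758113 FPKM. Whether the order at ZT12 holds after scaling of the libraries was not tested. Over the remaining 4 times, control values lay between 14.9 and 29.1 and IH values between 16.8 and 31.1. The gene was thus flatter than Por and Alas1, with a highest mean 1.62 times the lowest in control and 1.27 times in IH. Its rhythm was called in control (P = 0.00527, n = 18, maximum at 14.8 h) and not in IH (P = 0.0437, n = 18, maximum at 12.7 h), without a called difference between the cosines (unadjusted P = 0.242, n = 36, adjusted p = 0.92). The control call was lost, with P up to 0.0182 (n = 17), without any 1 of control ZT0 replicate 2, ZT4 replicates 1 and 3, ZT12 replicates 1 and 3 and ZT16 replicate 2.

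Rxra (chromosome 2, 27676440 to 27762957, plus strand) encodes the shared partner of CAR, PXR and many other nuclear receptors. It had a narrow range, 52.5 to 89.3 FPKM in control with a median of 69.3, and 54.5 to 83.9 in IH with a median of 65.9. The highest group mean was at ZT8 in both conditions, from 84.9, 89.3 and 78.9 in control and 76.4, 74.3 and 83.9 in IH. The lowest was at ZT20, from 60.5, 60.0 and 63.4 in control and 58.1, 63.4 and 55.6 in IH. Rxra therefore peaked earlier in the day than Por and Alas1 by its group means, with fitted maxima at 6.90 h for control (P = 0.00938, n = 18) and 8.30 h for IH (P = 3.49e-05, n = 18) and amplitudes of 0.18 and 0.21. The control call was close to the threshold: it had P = 2.55e-05 (n = 17) without control ZT12 replicate 2, it also held without ZT4 replicate 2 or 3 or ZT16 replicate 1, and it was lost without any other control library, with P up to 0.0308 (n = 17).

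Ahr (chromosome 12, 35497974 to 35535038, minus strand) encodes the dioxin receptor. It ranged from 3.16 to 8.77 FPKM in control with a median of 4.85, and the IH values lay between 2.42 and 8.76 with a median of 4.52. The highest value of each condition came from a library with Saa1 above 10000 FPKM, control ZT16 replicate 3 (8.77, against 4.05 and 4.69 in the other mice of that time) and IH ZT0 replicate 2 (8.76, against 3.43 and 4.51). In control at ZT8 the mice had 4.89, 5.45 and 6.50 FPKM and the IH mice 6.13, 6.03 and 6.93. No rhythm was called in control (P = 0.813) or in IH (P = 0.0946, n = 18 each).

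Ces2a (chromosome 8, 104734003 to 104741634, plus strand) belongs to a cluster of related carboxylesterase genes, and 8.13% of the 100-base windows of its exons occur unchanged in the predicted gene Gm7208, so part of its reads may be shared. The lowest and highest control values were 88.5 and 299.8 FPKM with a median of 173, and those of IH were 78.1 and 208 with a median of 161. At ZT20 the control mice had 192, 223 and 194 FPKM and the IH mice 146, 183 and 151, all below the control mice (as for 4.18% of all genes). The log2 difference at ZT20 was -0.34 ± 0.27 (SE) and was not called (limma, unadjusted P = 0.22). Mice of 1 group often differed by more than the groups did, for example 299.8, 121 and 183 in control at ZT12. No rhythm was called in control (P = 0.698) or in IH (P = 0.104, n = 18 each).

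**Figure D3:**
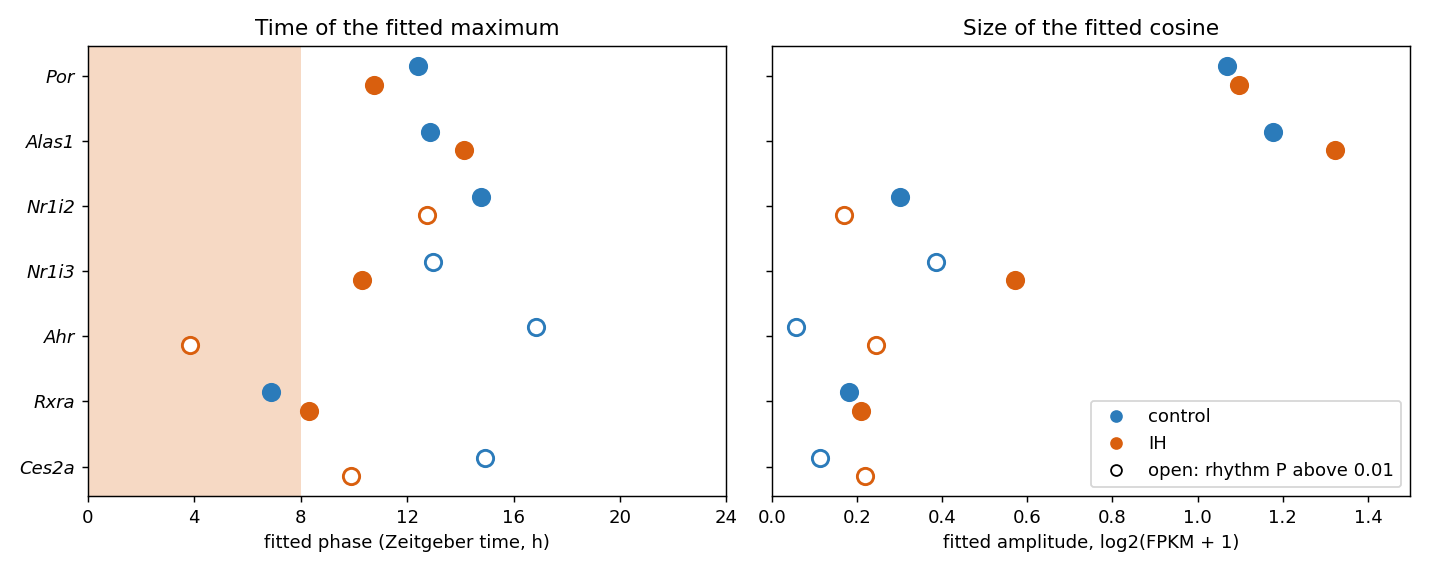
Fitted time of the maximum (left, h) and fitted amplitude on the log2(FPKM + 1) scale (right) for each gene in control (blue) and IH (orange), with filled points where the rhythm P was 0.01 or less and shading for the hours of IH exposure. Por and Nr1i3 lay earlier in IH, at 10.8 and 10.3 h against 12.4 and 13.0 h, Alas1 lay later, at 14.2 against 12.8 h, and no difference between conditions was called.

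Mean levels over the whole day were then compared between IH and control in the 36 libraries, with the time point as a factor. Of the 7 genes 0 differed, where 0.356% of all genes were called (limma, smallest adjusted p 0.59, for Rxra). At an unadjusted P under 0.05 there were also 0 of the 7, against 10.8% of all genes. The differences, IH minus control on the log2(FPKM + 1) scale, were 0.18 ± 0.13 (SE) for Nr1i3, -0.28 ± 0.25 for Alas1 and between -0.08 and 0.02 for the other 5 genes, while the median of all genes was 0.03.

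During the hypoxic hours, at ZT4 and ZT8 in a joint fit (12 libraries), 1 of the 7 genes passed the test, where 7.98% of all genes were called, 6.05% as higher in IH and 1.93% as lower. At an unadjusted P under 0.05 there were 4 of the 7 (Por, Alas1, Nr1i3 and Ahr), against 27.1% of all genes. The lean of all genes towards IH depended on the scaling of the libraries, with 799 genes higher and 255 lower as deposited, 491 and 250 with a common sum, 522 and 428 with quantile normalization and 460 each way with the median ratio. Nr1i3 rose in IH by 0.66 ± 0.18 (log2 difference ± SE, limma adjusted p = 0.0474), with all 3 IH mice above all 3 control mice at each of these times. This call did not hold under most other choices: the adjusted p ranged from 0.0238 to 0.552 over all alternatives, the gene was called in 2 of the 12 fits that left out 1 of these libraries (those without control ZT8 replicate 2 or 3), and with the replicate number as a block the adjusted p was 0.0528. Its direction was the same in each of them. Saa1 moved with this result: it stood at 2357, 2435 and 828 FPKM in control ZT4 replicates 1 and 3 and control ZT8 replicate 1, at 57.4 or less in the other 3 control libraries of these times and at 72.1 or less in the 6 IH libraries. The same 3 control mice had the lowest Nr1i3 of their time. Without them, in an alternative chosen after the data were seen, 3 control and 6 IH libraries remained, the difference of Nr1i3 was 0.28 (limma adjusted p = 0.150), and 0 of the 7 genes and 0 of all genes were called, while 15.5% of all genes and 2 of the 7 (Por and Nr1i3) had an unadjusted P under 0.05. In that fit Por differed by 0.45 and Alas1 by -0.95, Nr1i2 was at 0.00 and Ces2a at -0.08. No call at ZT4 and ZT8 given here, for the 7 genes or for the lists, held in it. Tomm40l differed by 0.66 ± 0.20 (adjusted p = 0.0600). Of the 4 markers of pericentral hepatocytes, the zone where many CAR targets are expressed, 1 was higher and 1 lower in IH at these times. Their sum moved with Nr1i3 at ZT4, where it was 3116, 3791 and 3182 FPKM in control and 4279, 4636 and 4949 in IH, without overlap, and overlapped at ZT8, where the control mice had 4073, 5858 and 5346 and the IH mice 5706, 5374 and 6659. Among the 4 hepatocyte and the 4 periportal markers, 1 each was higher in IH. The part of the zones in this result was not tested.

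The other genes did not pass at ZT4 and ZT8. Por differed by 0.42 ± 0.13 (adjusted p = 0.0596), and its groups overlapped at ZT4 and not at ZT8. Ahr differed by 0.21 ± 0.09 (adjusted p = 0.171), with groups that overlapped at both times. Alas1 had the opposite sign, -0.85 ± 0.38 (adjusted p = 0.168), and its groups also overlapped at both times. The values were 0.21 ± 0.12 for Nr1i2, 0.17 ± 0.11 for Ces2a and -0.09 ± 0.05 for Rxra (adjusted p = 0.29, 0.34 and 0.297), and the median of all genes was 0.04. Thus the electron donor and the heme synthase, which serve the same enzymes, had differences of opposite sign in these hours, although neither difference was called.

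At single time points, with BH adjustment over all genes within a time, 0 of the 42 gene and time point pairs were called, where 0.324% of all such pairs were (limma). The smallest unadjusted P values belonged to Por at ZT4 (0.53 ± 0.19, adjusted p = 0.159), Nr1i3 at ZT4 (0.77 ± 0.30, adjusted p = 0.192) and Por at ZT20 (-0.45 ± 0.19, adjusted p = 1). These 3 pairs were the only ones of the 42 under 0.05 before adjustment. The difference of Por was positive at ZT4 and ZT8 and negative at the other 4 times. A test of whether the IH difference varied with time point gave P = 0.00838 (n = 36) for Por, with an adjusted p of 0.196 (limma). It called 0 of the 7 genes, against 0.136% of all genes, and Por was the only gene of the 7 with an unadjusted P under 0.05.

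**Figure D4:**
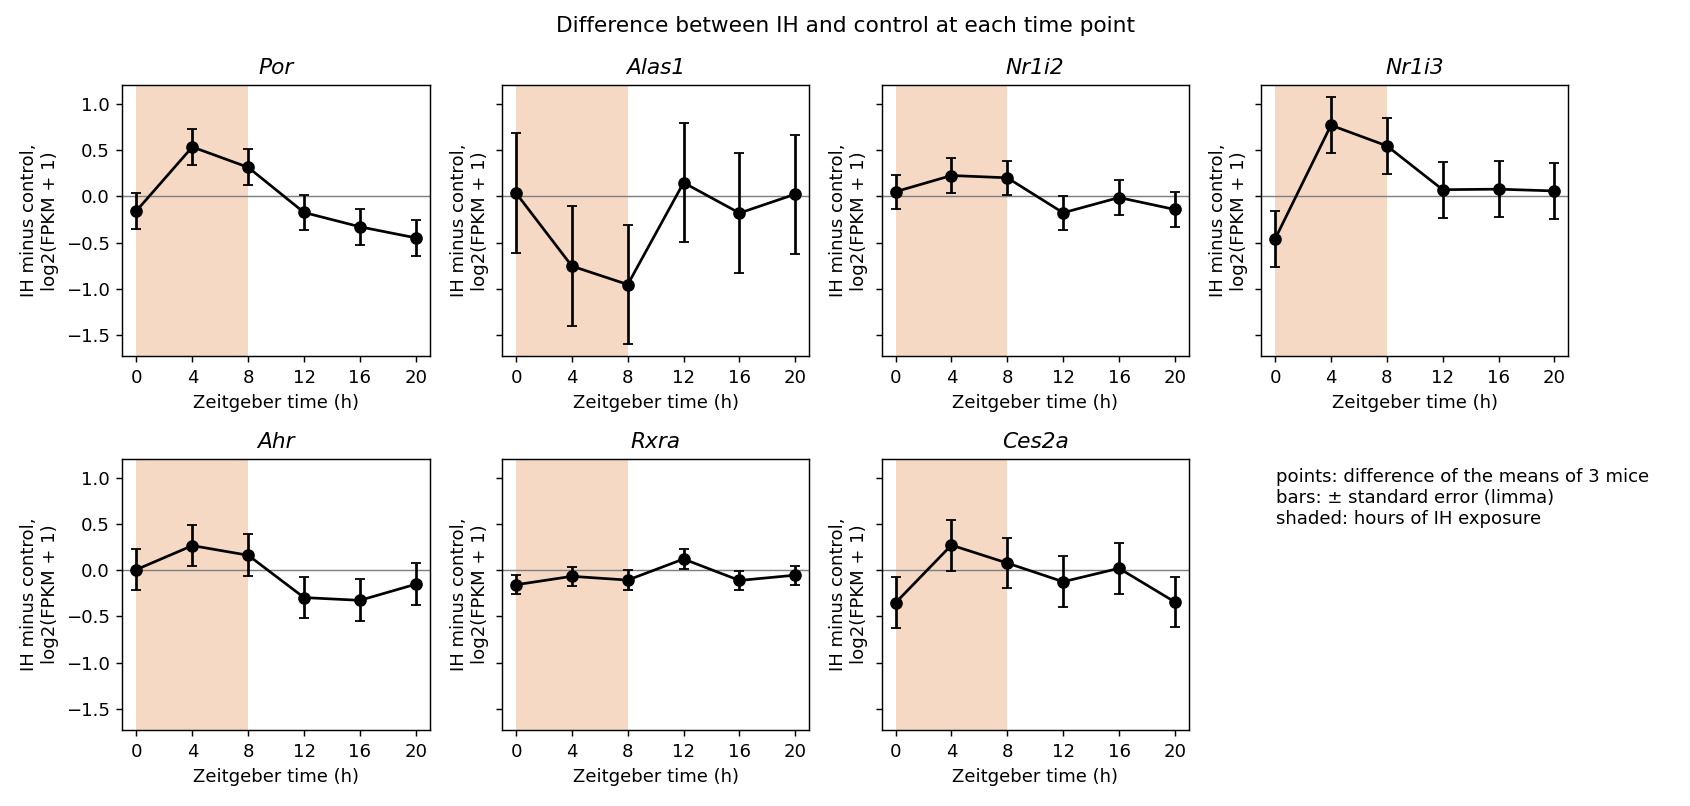
Difference between IH and control at each time point for each gene, on the log2(FPKM + 1) scale, as the difference of the means of 3 mice ± SE from limma; shading marks the hours of IH exposure. Por and Nr1i3 were positive at ZT4 and ZT8 (0.53 and 0.31 for Por, 0.77 and 0.55 for Nr1i3), Alas1 was negative (-0.75 and -0.95) with wide error bars, and 0 of the 42 differences passed the test.

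Genes that work around the 7 were grouped into 7 lists by known function, and their counts stand against the shares of all genes called above (20.0% rhythmic in control, 39.9% in IH and 15.5% in both, and 6.05% higher and 1.93% lower in IH at ZT4 and ZT8). Over all time points, 0 of their 73 tested genes were called (limma), against 0.356% of all genes. An unadjusted P under 0.05 was found for 7 of the 73, against 10.8% of all genes. The heme list holds other genes of heme synthesis and breakdown, not all of them enzymes, and of its 14 tested genes 4 were called rhythmic in control, 8 in IH and 3 in both. Without the 3 libraries of high Saa1, Abcb10 was called in control too (cosine fit, P = 0.00682, n = 16). The control call of Hmox2 was then lost (cosine fit, P = 0.0112, n = 16). That call held in 4 of the 12 other settings and in 22 of the 36 fits that left out 1 library. The 18 of these fits without an IH library leave the control fit unchanged. Uros, the fourth enzyme of the pathway, was rhythmic in both (P = 1.44e-05 and 5e-05, n = 18 each) with maxima at 23.0 and 21.0 h, so its maximum fell at another time of day than that of Alas1. In the hypoxic hours, 1 of the 14 genes rose in IH and 0 fell. It was Hmox2, the constitutive heme oxygenase that degrades heme, with 28.3 ± 3.04 FPKM in control and 33.8 ± 1.11 in IH at ZT4 (SD, n = 3), a log2 difference over both times of 0.20 ± 0.05 (limma adjusted p = 0.0417).

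Of 6 genes on the microsomal electron transfer list, which also holds the hemopexin gene Hpx, the same 3 were called rhythmic in each condition, Cyb5a, Cyb5b and Pgrmc2. Cyb5a, the microsomal cytochrome b5 that can pass electrons to P450 enzymes, had its maximum at 12.6 h in control, against 11.3 h in IH, near that of Por. Its control call was lost in 14 of the 36 fits that left out 1 library and with a common sum, quantile normalization, JTK_Cycle, the F test and the replicate block. The gene that rose in IH at ZT4 and ZT8 was Cyb5r3, which encodes cytochrome b5 reductase, by 0.27 ± 0.06 (limma adjusted p = 0.0278), with 269 ± 18.7 FPKM in control and 345 ± 10.9 in IH at ZT4. After scaling by the median ratio, its adjusted p was 0.0573, and that of Hmox2 was 0.193. Over the 12 fits without 1 library of these times, Cyb5r3 was called in 4 and Hmox2 in 3.

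Of 14 receptor partners and coregulators tested, 2 were rhythmic in control (Rxrg, a minor RXR form, and Nr0b2, the corepressor SHP), 4 in IH and 0 in both. These calls depended on the test. An F test over the 6 time points called Nr0b2 and Rxrg in IH (P = 0.00767 and 0.00425, n = 18 each). The control call of Nr0b2 was lost with that F test (P = 0.0611), JTK_Cycle (P = 0.0453) and without the 3 libraries of high Saa1 (cosine fit, P = 0.0158, n = 16). JTK_Cycle called Ncoa2 in control (P = 0.00888, n = 18). In the test at ZT4 and ZT8, 0 of the 14 passed (limma) and 1 had an unadjusted P under 0.05, against 27.1% of all genes. Arnt, the partner of AHR, differed by -0.03 ± 0.08. Of 6 AHR target genes, a rhythm was called for 0 in control and for 1 in IH, Nqo1, which encodes a quinone reductase. Of these 6 genes, 2 rose in IH at ZT4 and ZT8. Cyp1a2, a constitutive liver P450, rose by 0.28 ± 0.06 (limma adjusted p = 0.0213), from 267 ± 22.5 to 330.4 ± 29.4 FPKM at ZT4 (SD, n = 3). Nqo1 rose by 0.38 ± 0.11 (adjusted p = 0.0483), a call that held in 2 of the 12 fits without 1 library and under 0 of the 3 scalings, where that of Cyp1a2 held in 9 and under 2. The median difference of the 6 genes was 0.18, and Cyp1a1, the most inducible AHR target, differed by 0.08 ± 0.07 and was at 0.561 FPKM in control and 0.656 in IH (medians).

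Of 16 target genes of CAR and PXR tested, 5 were rhythmic in control, 7 in IH and 2 in both. Those in both were Cyp2b10, a classical CAR target, with maxima at 18.9 and 17.7 h, and the uptake transporter Slco1a4, with maxima at 11.1 and 8.42 h. With JTK_Cycle neither Cyp2b10 call and not the control call of Slco1a4 was made, and without 1 library the control calls were lost in 3 and 6 of 36 fits. The control call of Slco1a4 was also lost with a common sum (cosine fit, P = 0.0141, n = 18). Without the 3 libraries of high Saa1, that of Cyp2b10 was lost (cosine fit, P = 0.01015, n = 16). Abcc2 was called in IH and not in control (cosine fit, P = 7.03e-07 and 0.0246, n = 18 each). Without those 3 libraries it was called in control too (cosine fit, P = 1.54e-08, n = 16). In the hypoxic hours 0 of the 16 passed (limma), and the median difference was 0.11. An unadjusted P under 0.05 was found for 3 of them, against 27.1% of all genes. Slco1a4 was the nearest (0.87 ± 0.25, adjusted p = 0.0544), with 4.88 ± 1.30 FPKM in control and 14.7 ± 2.37 in IH at ZT4. Cyp2b10 differed by 0.29 ± 0.17 (adjusted p = 0.288) and Cyp3a11, the main PXR target P450, by -0.11 ± 0.19 (adjusted p = 0.582).

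The carboxylesterase list held 13 tested relatives of Ces2a, of which 1 was rhythmic in control and 2 in IH, with Ces1d in both (maxima at 16.8 and 15.8 h). In the hypoxic hours 2 rose and 2 fell in IH. Ces2c, a close relative of Ces2a, fell by 0.72 ± 0.12 on the log2 scale (adjusted p = 0.0104), from 27.7 ± 6.05 to 14.0 ± 1.11 FPKM at ZT4 and from 28.3 ± 4.82 to 19.1 ± 1.13 at ZT8 (SD, n = 3; limma). Ces2b had the lower level of the pair, 1.31 ± 0.387 in control and 0.128 ± 0.0609 in IH at ZT4, with a difference of -0.79 ± 0.16 (limma adjusted p = 0.0224). Ces1b rose by 0.48 ± 0.08 (adjusted p = 0.0144) and Ces1g by 0.39 ± 0.10 (adjusted p = 0.0391), the latter named after its value was seen. Thus Ces2c and Ces2b were lower in IH in the same hours in which Ces2a differed by 0.17 ± 0.11 without a call. The calls of Ces1b and Ces2c held in all 12 fits that left out 1 library and under all 3 scalings, that of Ces2b in 9 and under 3, and that of Ces1g in 5 and under 2.

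The PAR bZIP list held Dbp, Tef and Hlf, which activate D-box genes, and Nfil3, which represses them. In control 3 of the 4 were rhythmic and in IH all 4, with Dbp, Tef and Nfil3 called in both. Hlf was not called in control (cosine fit, P = 0.0605, n = 18). It was called there without the 3 libraries of high Saa1 (cosine fit, P = 0.000635, n = 16). Scaling by the median ratio and quantile normalization also gave a control call of Hlf (cosine fit, P = 0.008015 and 0.008148, n = 18 each). Dbp had its maximum at 9.51 h in control, against 8.42 h in IH, Tef at 11.7 and 10.6 h, Hlf at 12.8 and 11.0 h, and Nfil3 at 20.8 and 20.3 h. The maxima of Tef and Hlf thus lay between 10.6 and 12.8 h, as did those of Por, with the control cosine of Hlf not called. Those of Dbp lay earlier than those of Por, and those of Nfil3 later.

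At ZT4 and ZT8, 2 of the 4 PAR bZIP genes rose and 1 fell in IH. Tef rose by 0.73 ± 0.16 (limma adjusted p = 0.0255), from 9.05 ± 0.602 to 20.0 ± 5.94 FPKM at ZT4 (SD, n = 3). Hlf rose by 0.53 ± 0.12 (adjusted p = 0.0278), and the repressor Nfil3 fell by 0.52 ± 0.14 (adjusted p = 0.0467). Dbp differed by 1.34 ± 0.38 and just missed the threshold (adjusted p = 0.0514), with 3.73 ± 0.889 FPKM in control and 25.5 ± 14.8 in IH at ZT4. Over the 12 fits without 1 library, Tef and Hlf were called in 7 each and Nfil3 in 1, the fit without IH ZT4 replicate 1.

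**Figure D5:**
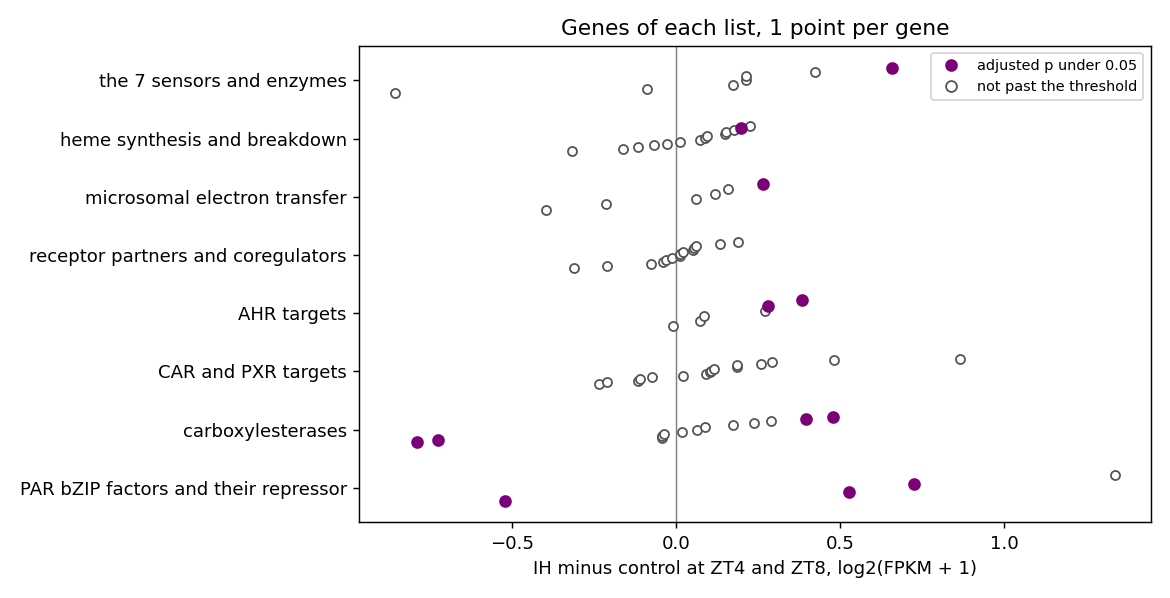
Difference between IH and control at ZT4 and ZT8 on the log2(FPKM + 1) scale, with 1 point per gene for the 7 genes and for each functional list; filled points passed the test at an adjusted p under 0.05. The largest positive value was that of Dbp (1.34, not called), and the called negative values were Ces2b (-0.79), Ces2c (-0.72) and Nfil3 (-0.52).

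The genes whose profiles were most like each of the 7 were found by the Pearson correlation of log2(FPKM + 1) over the 36 libraries, among the 9813 genes that averaged 1 FPKM or more. These values are descriptions over libraries that share time points and conditions. Por was closest to Igfbp4 (0.925), Rhbdd2 (0.915) and Ciart (0.910), the last a clock repressor. Nr1i3 was closest to Gpd1l (0.918), its overlapping neighbour Tomm40l and Tmem134 (0.897). Alas1 was closest to Nrep (0.874), Gm14420 (0.838) and Gm14403 (0.826). Ces2a was closest to the P450 gene Cyp3a11 (0.876), followed by Bdh2 (0.844) and Tie1 (0.839). Rxra was closest to Clcn7 (0.849), Rgp1 (0.838) and Ttc39b (0.831), and Nr1i2 to Bnip2 (0.835), Tk1 (0.770) and Slc15a4 (0.756). For Ahr the closest genes, Ttpa (0.639), Susd6 (0.628) and Acad12 (0.603), were less alike than for the other 6 genes.

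The 3 libraries of high Saa1 bore on several of these genes. Ces2a was below both other mice of its group in all 3, at 121, 88.5 and 78.1 FPKM, a pattern shared by 22.3% of all genes. Nr1i3 was below both in the 2 control libraries, at 39.0 against 83.9 and 103 at ZT12, and at 47.3 against 79.6 and 81.7 at ZT16. Nr1i2 and Rxra were also below both in these 2 libraries, and Ahr was above both in 2 of the 3 libraries. Alas1 was below both in control ZT12 replicate 2 (154, against 427 and 553) and in IH ZT0 replicate 2 (56.3, against 88.4 and 349). Por was below both in 1 of the 3 libraries and above both in 1. The shares of all genes with these patterns were not counted. For genes below both in the 2 control libraries, the share is at least the 22.3% given for all 3. None of these 3 libraries belongs to ZT4 or ZT8, where the control libraries with Saa1 between 828 and 2435 FPKM are described above. Their part in the other results was not tested beyond the values without them.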

How the data were processed

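Polyadenylated liver RNA of 36 mice was sequenced by the authors as stranded paired-end libraries, aligned to mm10 with TopHat2 2.1.1 running Bowtie2 and quantified per gene and replicate with Cufflinks 2.2.1 (versions per the submitters' processing notes). The deposited values are FPKM from the authors. The annotation, any scaling between samples and whether counting used strand are not given in the sources used here, and the tables hold no read counts, so depth is unknown.

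Condition, time and replicate number came from the sample labels. The 2 tables carry the same column names, so the condition of each was taken from the table names and the profiles plotted in the paper. Of 24883 rows, the 280 symbols on more than 1 row were left out. Tests used log2(FPKM + 1) of genes that averaged 0.1 FPKM or more over all libraries in R 4.3.3 with limma 3.58.1 (moderated tests with an intensity trend, Benjamini-Hochberg adjustment over the 13215 genes). Fold changes on this scale understate those of low genes. Rhythms were called at a nominal P of 0.01 within a condition, as in the study, but with a cosine in place of BIO_CYCLE. Level differences had the time point as a factor, and single time points used 1 mean per condition and time. Tests were also run on simulated data.

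The 7 genes, the functional lists and the marker lists were chosen with earlier results of these data known. Named from each list are up to 4 genes with the smallest P over all time points and up to 4 with the smallest mean log10 P of the 2 rhythm tests, and others as stated. Listed genes not tested were Flvcr1, Ahrr, Aldh3a1, Cyp2b9, Cyp2b13 and Ces2f. Promoters came from RefSeq (GRCm38.p6) and gene positions from GENCODE M21 (GRCm38). Alternatives were other pseudocounts, filters, scalings, rhythm tests, thresholds, a replicate block and leaving out libraries. Python 3.11.15 with matplotlib 3.10.9 made the plots. The authors' metabolomics and immunoblots were not analysed here.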

Additional observations from a re-analysis of the deposited data

How the results depend on the processing

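For the 7 genes, 363 of 385 results under other settings and 1225 of 1260 without 1 library kept their side of the threshold. Level differences counted here also kept their direction. The exceptions are in part given beside each gene. Most of the 385 and 1260 results belong to tests not called in the main fits, so these counts say little about the calls. The only level call, Nr1i3 at ZT4 and ZT8, held in 5 of the 12 other settings. Nr1i2 over all time points had a negative difference with the median ratio (-0.0205), quantile normalization (-0.0062) and without control ZT0 replicate 2 (-0.0088) or control ZT8 replicate 1 (-0.0148), against 0.02, and ran up to 0.0462 without 1 library. The rhythm of Nr1i2 in control was lost with a common sum, JTK_Cycle and an F test that compared time point means, and that of Rxra with a common sum, the F test and a mean of at least 1 FPKM. The number of the 7 rhythmic in control was then 2 with each of the common sum, JTK_Cycle and the F test. Without 1 library it ran from 1 (without control ZT12 replicate 1 or 3) to 4, and in IH it stayed at 4. At ZT4 and ZT8 it was 0 with no filter, each of the 3 scalings, the replicate block and ZT8 alone, and without the 3 libraries of these times with Saa1 above 500 FPKM, 2 at a nominal P of 0.01, and 0 to 1 without 1 library. Without those 3 libraries, an alternative chosen after the data were seen, Ces2a had a negative difference (-0.079, against 0.17). Nr1i3 had an adjusted p of 0.0914 with no filter, 0.0631 with a common sum, 0.0502 with the median ratio, 0.0534 with quantile normalization and 0.552 at ZT8 alone.

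Over all genes, calls at ZT4 and ZT8 numbered 614 with no filter, 1636 at a nominal P of 0.01 and 0 at ZT8 alone and without those 3 libraries, against 1054, and from 231 to 1342 without 1 library. Calls over all time points numbered 27 with a common sum, 183 without the libraries of high Saa1, 442 at a nominal P and 0 with no time factor, against 47, and from 28 to 157 without 1 library. At single time points they numbered 168 with no filter, 52 with a common sum, 430 with quantile normalization, 1349 without the libraries of high Saa1 and 2780 at a nominal P, against 257, and from 26 to 3303 without 1 library. Rhythm differences numbered 0 and, at a nominal P, 123, of which Por was 1. The causes were not tested.

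With the replicate number as a block, 0 of the 7 genes passed at ZT4 and ZT8, and 143 calls were made at single time points. Same-numbered IH and control mice are separate animals, so the numbers were not taken to pair the mice in the main tests. Their deviations from the group means correlated by 0.054 on average (above 0.1 in 6 of 18 pairs), against -0.0261 for other numbers. Of 36 libraries 19 matched best with their own number, where chance gives 12. Whether mice of the same number share an effect was not tested beyond the block. FPKM without read counts limits what can be said of low genes such as Ces2b and Ahr.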
